A study of Rattus norvegicus with 20 samples.

Results

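Heat shock proteins, molecular chaperones and protein-folding enzymes were measured by 92 probe sets for 47 genes, out of 8799 probe sets on the array and 4737 genes that have a probe set of their own. Members were taken by gene name alone: the heat shock protein families, the DnaJ (Hsp40) co-chaperones, the cytosolic chaperonin subunits, the FK506-binding proteins, the cyclophilins, the protein disulfide isomerases and heat shock factors, together with calreticulin (Calr), calnexin (Canx), prolyl 4-hydroxylase beta (P4hb) and alpha-B-crystallin (Cryab). The rule uses names and no values, but it was written with earlier results of these data known. Only probe sets that the platform annotation pairs with 1 gene symbol were used.

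The arrays were 1-colour Affymetrix arrays hybridised with labelled RNA of rat skeletal muscle taken from the rear leg, 20 in all, with 5 in each of 4 groups. The untreated groups were normal and diabetic muscle. The treated groups were diabetic muscle and normal muscle from rats that received vanadyl sulfate, a salt of vanadium known to mimic some actions of insulin. The sources used here do not give the strain, sex or age of the rats, how they became diabetic, which muscle was taken, or how much vanadyl sulfate they received and for how long. Nothing states that replicates came from separate animals, so p-values here describe only how far these samples spread, which may be technical.

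Chaperones bind unfolded or partly folded proteins and keep them from aggregating. Hsp70 proteins work in ATP-driven cycles with Hsp40 partners, Hsp90 completes the folding of kinases and hormone receptors, and the barrel-shaped chaperonins enclose a client while it folds, one kind in the cytosol and another in the mitochondrial matrix. Small heat shock proteins protect the contractile apparatus of muscle, disulfide isomerases and lectin chaperones fold proteins in the endoplasmic reticulum, and the transcription factor Hsf1 switches on many of these genes under stress.

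The signals were the authors' deposited MAS5 intensities, and a change is the difference between group means of log2(signal + 16), with its standard error (SE). Of the 92 member probe sets, 85 for 44 genes passed a filter on dim probe sets (signal above the array's 40th percentile in at least 5 of 20 arrays), and 62 of these lay above that percentile in all 20 arrays. The 7 that were not tested belonged to Hsph1, Dnajb14, Ppig (a pair of probe sets), Fkbp1b, Hspa5 and Dnajc5. Median array signal lay between 377 and 648. The tissue label was checked against 11 striated muscle markers on the array, all of which lay above the 40th percentile in every array. RNA quality varied within groups: the 3'/5' signal ratio (log2) of the beta-actin control probe sets spanned 0.58 to 3.01 over the normal arrays and 0.93 to 2.52 over the diabetic arrays, and 1.20 to 2.61 and 0.48 to 2.09 over their treated counterparts. The same ratio for Gapdh was highest in treated diabetic replicate 1 (3.94) and normal replicates 3 and 1 (2.91 and 2.90). Treated diabetic replicate 5 stood apart: 14 of the 85 members (16.5%) lay more than 2 log2 units below the mean of the other 4 arrays of its group, against 7.17% of all tested probe sets.

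Diabetic muscle had less RNA for Ppif, the mitochondrial cyclophilin D, than normal muscle, and Ppif was the 1 member of 85 that passed an adjusted p of 0.05 in this comparison (limma, Benjamini-Hochberg over 6027 tested probe sets), where 1.83% of all tested probe sets passed and 0.564% passed as lower. Without adjustment, 11 members (12.9%) had a p under 0.05, against 16.7% of all tested probe sets. The median change was -0.06 for the members and -0.06 for all tested probe sets, and 37 members (43.5%) had a positive value, against 44.9% of all. For 31 of the 85 members the 95% interval of the change lay within 1 log2 unit of 0.

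Vanadyl sulfate in diabetic rats changed no member past the adjusted threshold, where 0.498% of all tested probe sets passed; 11 members (12.9%) had an unadjusted limma p under 0.05, against 16.3% of all. In normal rats no member passed either, where 0.0664% of all tested probe sets passed, and 9 members (10.6%) had an unadjusted p under 0.05, against 9.23%. Treated diabetic against untreated normal muscle gave 0 members and 0% of all tested probe sets past the adjusted threshold, with 11 members (12.9%) at an unadjusted p under 0.05, against 12.8%. The interaction (the effect of treatment in diabetic rats less its effect in normal rats) gave 0 members, where 0.166% of all passed, and 7 members (8.24%) at an unadjusted p under 0.05, against 13.3%. The smallest adjusted p among members was 0.14, 0.335, 0.0887 and 0.119 in these comparisons in turn; the third is that of the dim Hspa2 probe set described with its class, and the next in that comparison was 0.27. Positive values were given by 36 members with treatment of diabetic rats (42.4%, against 56.1% of all tested probe sets), 52 with treatment of normal rats (61.2%, against 66.7%), 34 in treated diabetic against normal muscle (40%, against 53.8%) and 28 in the interaction (32.9%, against 42.2%). No member separated treated normal from normal arrays without overlap, where 1.84% of all did. The comparisons share groups, so their values for 1 gene are not independent of one another.

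By class, the 11 tested Hsp70 probe sets had a median change of -0.42 in diabetic muscle (-1.07 to 0.95, 8 negative), and the 8 of the lectin chaperones -0.33 (-1.12 to 0.82, 5 negative). The 8 disulfide isomerase probe sets had a median of 0.08 and the 8 of Hsp90 and Hsp110 0.09. With treatment of normal rats the median was 0.23 for the 16 Hsp40 probe sets of 10 genes (13 positive). It was 0.50 for the 8 of the lectin chaperones, which measure only 2 genes, Calr and Canx (7 positive). For the 10 small heat shock probe sets of 4 genes it was -0.18 (2 positive), beside 0.18 for all tested probe sets. Every class spanned both signs in at least 1 comparison, and no class held a call other than the cyclophilins with Ppif. These medians moved with single arrays: over the fits with 1 array left out, the Hsp70 median in diabetic muscle ran from -0.71 (without normal replicate 3) to -0.09 (without normal replicate 2), and the lectin chaperone median from -0.52 to -0.14.

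**Figure D1:**
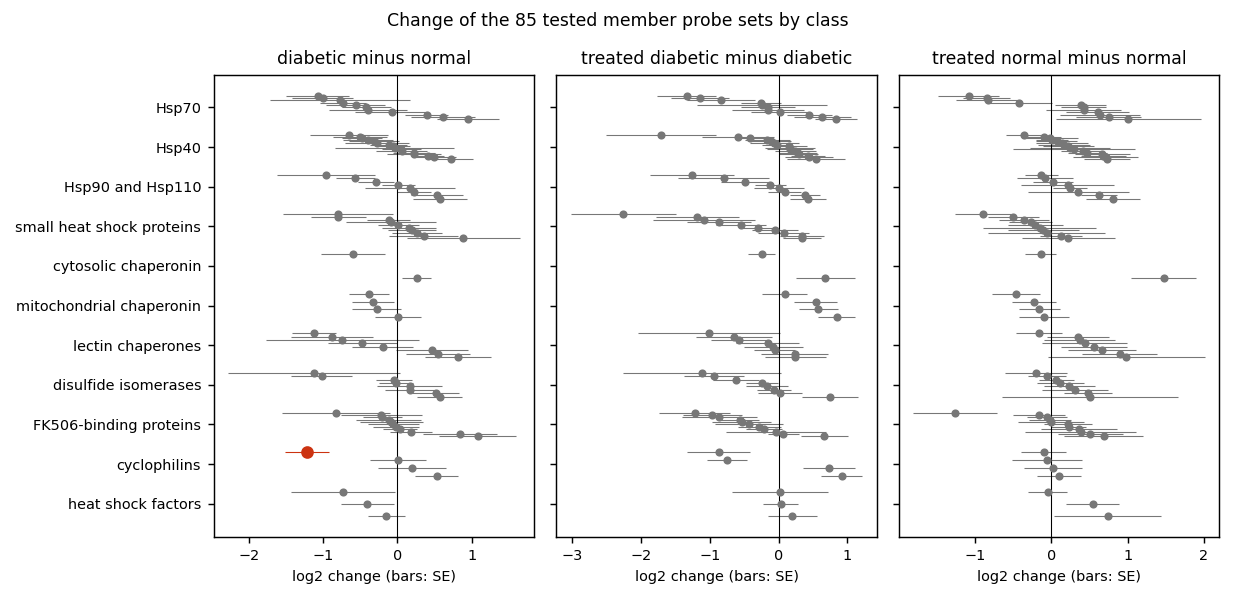
Log2 change of the 85 tested member probe sets (points, with SE bars) by class, for diabetic minus normal, treated diabetic minus diabetic, and treated normal minus normal muscle. The red point, Ppif among the cyclophilins at -1.21, is the call past an adjusted p of 0.05, and grey points did not pass.

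Cyclophilin D (Ppif, probe set U68544_at) is a prolyl isomerase of the mitochondrial matrix that regulates the permeability transition pore. Its signal in replicates 1 to 5 was 6279, 5230.1, 5338, 5616 and 7027 in normal muscle and 1517, 2058, 2159, 2913 and 5149.9 in diabetic muscle. It was 4689, 4093, 3340.4, 5326 and 7311 in treated diabetic and 6727, 6682, 4636, 6659 and 3515 in treated normal muscle. All 5 diabetic arrays lay below all 5 normal arrays, 4 of them clearly and diabetic replicate 5 just under the lowest normal array. The groups failed to overlap in this way for 4 members of 85 (4.71%), against 5.09% of all tested probe sets.

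Ppif fell by 1.21 ± 0.30 (SE) on the log2 scale in diabetic muscle, a 2.32-fold difference (limma adjusted p = 0.0435, lower in 5 of 5 arrays). Treated diabetic muscle lay 0.92 ± 0.30 above untreated diabetic muscle (adjusted p = 0.161), and its difference from normal muscle was -0.29 ± 0.30 (adjusted p = 0.681); neither difference passed the threshold. The treatment difference in normal rats was -0.10 ± 0.30 and the interaction 1.02 ± 0.42 (adjusted p = 0.301). The call was not stable to single arrays: it ended when any of normal replicates 2 to 5 or diabetic replicates 1 to 4 was left out, and over all 10 fits with 1 array left out the change ran from -1.47 to -1.03 and the adjusted p from 0.00891 to 0.151. It also ended without the filter (adjusted p = 0.0692), with both 3'/5' ratios as covariates (change -1.38, adjusted p = 0.0897) and with only the groups compared in the fit (adjusted p = 0.0897).

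Immune cell markers moved in the same comparison: 6 of 10 tested markers were higher past the adjusted limma threshold in diabetic muscle, where 1.26% of all tested probe sets were, and the median change of the 10 was 1.56. Their summed signal ran from 10946 to 17857 in normal and from 24766 to 102686 in diabetic muscle, highest in diabetic replicates 1 and 3, and no marker was at 0. Of the adipocyte markers, 3 of 5 tested were higher past the same threshold, with summed signals of 14987 to 26415 in normal and 32149 to 52729 in diabetic muscle. Striated muscle markers had a median change of -0.43, against -0.06 for all tested probe sets, with 1 of 11 positive. None of the 11 had an unadjusted limma p under 0.05. Slow-fibre markers had a median change of 0.28, with 7 of 8 positive and 2 higher at an unadjusted p under 0.05. Their summed signal ran from 194029 to 385223 in normal muscle and from 292967 to 410981 in diabetic replicates 1 to 4. It was 146367 in diabetic replicate 5. Without diabetic replicates 1 and 3, a choice made after seeing the data, the Ppif change was -0.90 with a limma adjusted p of 0.496. That fit had fewer arrays and fewer calls over all probe sets, so it cannot show the part of the markers. In whole muscle, fewer cells of a type and less RNA per cell cannot be told apart, and the part of these markers in the Ppif result was not tested.

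**Figure D2:**
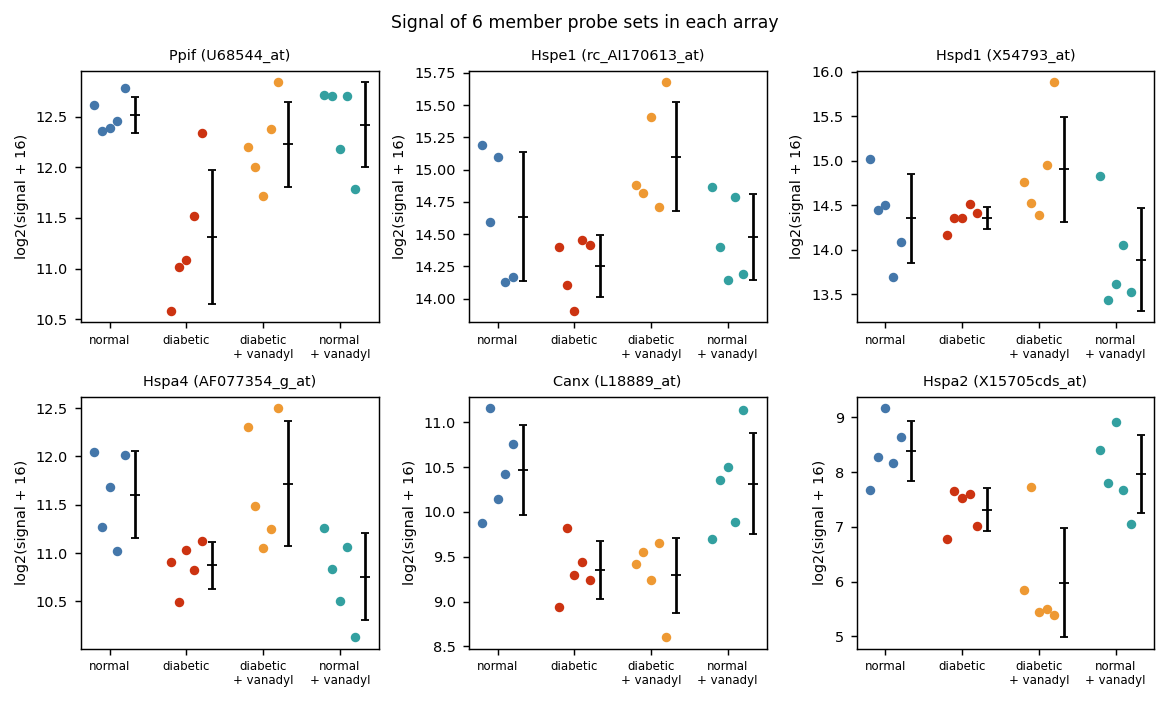
Signal, as log2(signal + 16), of Ppif, Hspe1, Hspd1, Hspa4, Canx and Hspa2 in each array of the 4 groups (points), with the group mean and SD (black). All 5 diabetic Ppif arrays lie below the normal arrays, and all 5 treated diabetic Hspe1 arrays lie above the diabetic arrays.

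The mitochondrial chaperonin is built from Hspd1 (Hsp60), which forms the barrel, and Hspe1 (Hsp10), which forms its lid. Hspe1 (rc_AI170613_at) gave signals of 21539.8, 17623, 15326, 22404 and 21804 in diabetic replicates 1 to 5 and 30179, 28881, 43425, 26725 and 52402 in treated diabetic muscle. It ranged from 17921 to 37349.8 in normal and from 18084 to 29895 in treated normal muscle. Every treated diabetic array lay above every untreated diabetic array, while normal arrays spread across both. No other member separated these groups without overlap (1 of 85, 1.18%, against 4.45% of all tested probe sets).

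The Hspe1 difference with treatment in diabetic rats was 0.84 ± 0.26 (limma adjusted p = 0.14), the smallest adjusted p of any member in that comparison but past no threshold. The other Hspe1 probe set gave 0.58 ± 0.28 (adjusted p = 0.324). For Hspd1, X54793_at gave 0.54 ± 0.31 (adjusted p = 0.39) and rc_AA858640_s_at 0.09 ± 0.33 (adjusted p = 0.918). All 4 values were positive, with a median of 0.56 against 0.08 for all tested probe sets. Without treated diabetic replicate 5 all 4 remained positive, the median was 0.34 and the X54793_at value 0.30. In normal rats all 4 were negative (-0.46 to -0.10), and the interaction ran from 0.18 to 1.00, again with none past the threshold (smallest adjusted p = 0.256; 2 at an unadjusted p under 0.05).

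Hspd1 (X54793_at) signals were 27719, 23556, 21501, 31664 and 60386 in treated diabetic replicates 1 to 5 and 18416, 20926, 20887, 23341 and 21779 in diabetic muscle. Replicate 5 of the treated diabetic group was the highest of all arrays for this probe set, as it was for Hspe1, and it is the array that stood apart from its group. Without any 1 array of either group, the Hspe1 change ran from 0.70 to 0.94 and its adjusted p from 0.108 to 0.303. Striated muscle markers had a median change of 0.71 in the same comparison, with 5 of 11 at an unadjusted p under 0.05 and 0 past the adjusted threshold. Their summed signal ran from 748007 to 1108976 in diabetic and from 1062911 to 2029321 in treated diabetic muscle. Slow-fibre markers went the other way, with a median of -1.53, 1 of 8 lower past the adjusted threshold and 6 lower at an unadjusted p under 0.05. In the same comparison immune cell markers had a median of -1.47 (3 of 10 lower past the adjusted threshold, where 0.448% of all tested probe sets were, and 8 at an unadjusted p under 0.05). Summed immune signal ran from 10539.7 to 22792.3 in treated diabetic muscle, below every untreated diabetic array. Adipocyte markers had a median of -0.82, with 1 of 5 lower past the threshold and a summed signal of 23035.6 to 34552.8. The part of these markers in the chaperonin values, and in the other values with treatment of diabetic rats, was not tested.

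Across the 20 arrays the signals of Hspd1 (X54793_at) and Hspe1 moved together. Pearson's r was 0.71 and Spearman's rho 0.71 with rc_AI170613_at (permutation p adjusted over 67 probe set pairs 0.00142 and 0.00381), and 0.76 and 0.67 with rc_AI170613_g_at (0.000614 and 0.00556). With the 2 arrays farthest from the median left out, r was 0.61 and 0.66, and with group means removed it was 0.70 and 0.77. The other Hspd1 probe set did not follow Hspe1 (r = 0.05 and 0.15, adjusted p = 0.866 and 0.623) nor the first Hspd1 probe set (r = 0.19, adjusted p = 0.557). The beta-actin 3'/5' ratio moved with Hspd1: its r was 0.67 with Hspd1 X54793_at (permutation p = 0.00113, adjusted over the 6027 tested probe sets 0.0143), 0.45 and 0.51 with the Hspe1 probe sets (adjusted p = 0.151 and 0.0956) and 0.07 with Hspd1 rc_AA858640_s_at.

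These genes lie head to head on rat chromosome 9. Their RefSeq promoter windows in the GRCr8 build, each 300 bases long (250 before the start and 50 after), overlap by 211 bases and share 3 matches to the core of the heat shock element, the site bound by heat shock factors. The core searched was GAANNTTC or TTCNNGAA within 250 bases before the start, each of which reads the same on both strands, and matches may overlap. The shared matches are shown in capitals and lie between the starts used here. The full annotated spans of the 2 genes overlap by 6 bases, so these starts are not the only ones. Only 1 of the 2 Hspd1 probe sets followed Hspe1, and a link between the matches and the signals was not tested. The Hspe1 stretch is chr9:64084217-64084316 on the plus strand and lies 110 to 11 bases before its start. The Hspd1 stretch is chr9:64084188-64084287 on the minus strand and lies 250 to 151 bases before its start.
Hspe1: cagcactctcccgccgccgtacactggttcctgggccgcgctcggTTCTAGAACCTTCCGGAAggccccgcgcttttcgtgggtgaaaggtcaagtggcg
Hspd1: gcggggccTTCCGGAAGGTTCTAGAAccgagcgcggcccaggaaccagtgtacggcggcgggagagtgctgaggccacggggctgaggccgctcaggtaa
The capitals in both lines cover the same bases, chr9:64084262-64084279, read from opposite strands.

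Promoters were found for 40 of the 47 member genes, and 12 of them held the core, against 3619 of all 27457 promoters of that length in the table (13.2%). Matches are shown in capitals for a pair of cytosolic genes that hold several and are described with their classes, the Hsp110 gene Hsph1 (3 matches) and the small heat shock gene Hspb1 (2 matches). The Hsph1 stretch is chr12:10427248-10427347, plus strand, 120 to 21 bases before its start. The Hspb1 stretch is chr12:26432352-26432451, minus strand, 150 to 51 bases before its start.
Hsph1: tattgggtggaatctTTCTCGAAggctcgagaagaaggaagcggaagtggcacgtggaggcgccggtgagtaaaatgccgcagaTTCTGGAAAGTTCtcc
Hspb1: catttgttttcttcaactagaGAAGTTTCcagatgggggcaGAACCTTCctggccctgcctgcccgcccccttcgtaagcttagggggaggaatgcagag
The 26 tested probe sets of the 12 genes with a match had a median change of -0.24 between diabetic and normal muscle, and the 45 of 25 genes without one -0.02. With treatment of diabetic rats the medians were -0.06 and -0.16, and with treatment of normal rats 0.12 and 0.22. These are descriptions of letters and medians, with no test.

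The other mitochondrial chaperones did not pass. Hspa9 (mortalin), the Hsp70 that pulls proteins into the matrix, had 3 probe sets with changes of -1.01, -0.77 and -0.40 in diabetic muscle (smallest limma adjusted p = 0.218), and its signals spread widely within groups, as from 1740.1 to 12863 in normal muscle for S78556_at. Dnaja3, its Hsp40 partner, gave -0.12 ± 0.25 in diabetic muscle and 0.43 ± 0.25 with treatment of diabetic rats (adjusted p = 0.387). Among 8 tested genes of mitochondrial protein import and processing, all 8 had positive values with treatment of diabetic rats (median 0.50, against 0.08 for all tested probe sets), 4 at an unadjusted p under 0.05 and 0 past the adjusted threshold. The values were 0.83 ± 0.21 for Pmpca, a subunit of the peptidase that removes import signals (adjusted p = 0.0964), and 0.65 ± 0.23 for Timm44, which anchors mortalin at the inner membrane (adjusted p = 0.187). In diabetic against normal muscle the same genes gave -0.49 ± 0.21 and -0.65 ± 0.23 (adjusted p = 0.253 and 0.144), and 1 of the 8 genes had a positive value.

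Among cytosolic Hsp70 proteins, Hspa4, an Apg-2 type nucleotide exchange factor for Hsp70, had 2 probe sets whose group means ran in different orders. That of AF077354_g_at was lower in untreated diabetic and treated normal muscle than in the other groups, and that of AF077354_at was highest in normal muscle (10.27) and lower in diabetic (9.71), treated diabetic (9.55) and treated normal muscle (9.18), on the log2(signal + 16) scale. AF077354_g_at signals were 4202, 2459, 3266, 2059 and 4125 in normal and 1907, 1425, 2079, 1799 and 2214 in diabetic muscle. They were 5041, 2849, 2104, 2426 and 5766 in treated diabetic and 2428, 1808, 1442, 2121 and 1106 in treated normal muscle. Normal and treated diabetic arrays reached the highest values, but each of these groups overlapped the diabetic and treated normal arrays.

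The treatment difference of Hspa4 was 0.84 ± 0.30 in diabetic rats (limma adjusted p = 0.201) and -0.85 ± 0.30 in normal rats (adjusted p = 0.425), which gave the interaction with the smallest p among members, 1.69 ± 0.43 (adjusted p = 0.119). The other Hspa4 probe set gave 0.93 ± 0.56 for the interaction (adjusted p = 0.491), with -0.15 in diabetic and -1.08 in normal rats, and its signals had an r of 0.29 with those of the first (adjusted p = 0.328). Diabetic against normal muscle gave -0.73 and -0.56 for the pair. None of these passed. Striated muscle markers had a median interaction of 1.33, and 8 of 11 were higher at an unadjusted limma p under 0.05. None passed the adjusted threshold. Their median with treatment of normal rats was -0.60. Immune cell markers had a median interaction of -1.79, with 1 of 10 lower past that threshold (0.166% of all). For all tested probe sets the medians were -0.13 (interaction) and 0.18. The part of these markers in the interaction values was not tested.

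Hspa2, a testis-enriched Hsp70, was dim, above the 40th percentile in 5 of 20 arrays. Its signals were 189, 293, 559, 272 and 381 in normal and 93.6, 186, 169, 178 and 114 in diabetic muscle. They were 41.3, 197, 27.7, 29.0 and 25.8 in treated diabetic and 322, 207, 464, 188 and 116 in treated normal muscle. Treated diabetic replicate 2 stood above the other 4 arrays of its group, all of which lay below every array of the remaining groups. A probe set this dim entered the tests only through the arrays where it was brighter, none of them treated diabetic, so its values are given as a description.

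Treated diabetic against normal muscle gave -2.41 ± 0.42 for Hspa2 (limma adjusted p = 0.0887), treated against untreated diabetic muscle -1.34 (adjusted p = 0.145), and diabetic against normal muscle -1.07 ± 0.42 (adjusted p = 0.197). With 1 array left out, the first ran from -2.84 to -2.21 and the second from -1.78 to -1.19. In each, 1 of 10 fits passed, the one without treated diabetic replicate 2, the array that lay nearest the other groups. The filter admitted Hspa2 only through groups where it was brighter, so neither these fits nor the p-values are support for a difference. The stress-inducible Hsp70 gene Hspa1a gave -0.07 ± 0.49 in diabetic muscle and -0.84 ± 0.49 with treatment (adjusted p = 0.961 and 0.394), the latter being -0.31 without treated diabetic replicate 5. BiP (Hspa5), the Hsp70 of the endoplasmic reticulum, gave 0.39 and 0.61 from its 2 tested probe sets in diabetic muscle (adjusted p = 0.511 and 0.482).

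The 16 tested Hsp40 probe sets, for 10 genes, spread from -0.65 to 0.73 in diabetic muscle, with 7 positive and a median of -0.05. Dnajc5 (cysteine string protein, a co-chaperone of vesicle fusion) lay at the upper end. Its probe set rc_AA859806_at had signals from 2701 to 5581 over the 5 normal arrays and from 4058 to 7365 over the 5 diabetic arrays. Treated arrays ran from 4115 to 13103 where rats were diabetic and from 3955 to 7191 where they were not, and all groups overlapped the normal one. The change was 0.73 ± 0.30 in diabetic and 0.97 ± 0.30 in treated diabetic muscle, each against normal (limma adjusted p = 0.208 and 0.27). The other tested Dnajc5 probe set gave -0.47 and -0.19. Dnajb1, the Hsp40 of the heat shock response, gave 0.06 and -0.06 in diabetic muscle from its 2 probe sets, with adjusted p of 0.941 and 0.931.

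Hsp90 and Hsp110 members gave values on both sides of 0. Hsp90ab1, the constitutive cytosolic Hsp90, had 4 probe sets with changes of 0.02 to 0.54 in diabetic muscle, none past the threshold (smallest limma adjusted p = 0.451). Its rc_AI008074_s_at signals were 17464, 14364, 7068, 8502 and 17259 in normal and 22088, 24707, 18299, 13819 and 31128 in treated normal muscle, with overlap. The treatment difference there was 0.81 ± 0.35 in normal and -0.48 ± 0.35 in diabetic rats, an interaction of -1.29 ± 0.49 (adjusted p = 0.265). The 4 probe sets ran from -1.47 to 0.51 for the interaction, and only rc_AI236795_s_at was positive (0.51 ± 0.31). The lowest was S45392_at, whose signal was 1731.5 in treated diabetic replicate 5, against 25760.2 or more in the rest of that group. Hsph1 (Hsp110, an exchange factor for Hsp70) ranged from 2146 to 4430.3 in normal and 4194 to 5289.6 in treated normal muscle, a difference of 0.62 ± 0.24 (adjusted p = 0.489). Hsp90b1 (Grp94), the Hsp90 of the endoplasmic reticulum, had probe sets at -0.96, -0.56 and 0.58 in diabetic muscle.

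The small heat shock proteins Hspb1 (Hsp27), Cryab, Hspb2 and Hspb6 are abundant in striated muscle, and none of their 10 probe sets passed in any comparison. Hspb1 M86389cds_s_at had signals of 10298, 22568, 15925, 28486 and 31195 in normal and 33573, 65689, 41814, 42502 and 18228 in diabetic muscle. In treated diabetic muscle they were 18813, 23157, 11878, 13952 and 379. Treated diabetic replicate 5 lay far below every other array. The treatment change in diabetic rats, -2.26 ± 0.76 (limma adjusted p = 0.172), was -1.18 without that array (adjusted p = 0.182), and lay between -2.65 and -1.18 over all fits with 1 array left out. The other Hspb1 probe sets gave -0.86, -0.05 and 0.34.

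Cryab, a chaperone of the muscle Z-disc and of desmin, gave 0.20 ± 0.33 and 0.16 ± 0.36 in diabetic muscle (limma adjusted p = 0.798 and 0.867), and 0.34 and -0.55 with treatment. Hspb6 (Hsp20) had -0.80 and -0.79 in diabetic muscle (adjusted p = 0.606 and 0.286), and Hspb2, a muscle partner of the family, -0.08 and -0.12. The 10 probe sets of the class had a median change of 0.09 in diabetic muscle and -0.42 with treatment of diabetic rats. Without treated diabetic replicate 5 the latter median was -0.09, the Cryab value of -0.55 became -0.11, and the Hspb6 value of D29960_at moved from -1.08 to -0.06. Slow-fibre markers had a median change of -1.53 in the latter comparison (1 of 8 lower past the adjusted threshold), with summed signals of 146367 to 410981 in diabetic and 57201 to 471023 in treated diabetic muscle. Their part in the small heat shock values was not tested.

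The cytosolic chaperonin, which folds actin and tubulin, was represented by 2 subunits. Cct6a (rc_AA875047_at) had signals of 396, 506, 141, 1068 and 544 in normal and 628, 1917, 1908, 710.0 and 1910.1 in treated normal muscle, with the 3 highest arrays all treated but with overlap between the groups. The difference was 1.47 ± 0.43 (limma adjusted p = 0.335), the largest positive value among members in that comparison. Cct3 gave -0.14 ± 0.20 there (95% interval -0.55 to 0.27) and 0.26 ± 0.20 in diabetic muscle (adjusted p = 0.516).

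In the endoplasmic reticulum, calnexin (Canx), a membrane chaperone that holds glycoproteins through their sugars, had 5 probe sets that fell into 2 sets of opposite sign. L18889_at signals were 923, 2262, 1114, 1356 and 1713 in normal and 473, 888, 615, 680.1 and 588 in diabetic muscle. In treated diabetic muscle they were 667, 732, 589, 789 and 373. All diabetic and treated diabetic arrays lay below all normal arrays, and the latter separation was the only one among members in that comparison (1 of 85, 1.18%, against 0.68% of all).

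L18889_at gave -1.12 ± 0.30 in diabetic muscle, just short of the threshold (limma adjusted p = 0.058), and -1.18 ± 0.30 in treated diabetic against normal muscle (adjusted p = 0.27). It passed without normal replicate 1 (-1.27, adjusted p = 0.0305) and with array weights (-1.27, adjusted p = 0.0097). Probe set rc_AA893328_at gave -0.88 ± 0.55 and -1.53 ± 0.55. The remaining 3 gave positive values in diabetic muscle, 0.46, 0.55 and 0.82 (adjusted p = 0.664, 0.537 and 0.359), and 0.70, 0.47 and 1.06 in treated diabetic against normal muscle. These 3 moved together across the 20 arrays (r = 0.86 to 0.90), as did L18889_at and rc_AA893328_at (r = 0.74), while L18889_at and rc_AI010725_g_at had r = -0.46 (permutation p adjusted over 67 pairs 0.0816).

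Calreticulin (Calr), the soluble lectin chaperone, gave -0.20, -0.47 and -0.74 from 3 probe sets in diabetic muscle (limma adjusted p = 0.847, 0.638 and 0.757). Among the 8 disulfide isomerase probe sets, Pdia2 (rc_AI639478_at) had signals of 354 to 1012 in normal and 122 to 615 in diabetic muscle, a change of -1.02 ± 0.41 (adjusted p = 0.201). P4hb, the classical disulfide isomerase, gave 0.57, 0.17 and -1.12 from 3 probe sets. Of 17 tested genes of endoplasmic reticulum folding and the unfolded protein response outside the members, 0 passed in diabetic muscle by limma. At an unadjusted p under 0.05, 2 were higher and 1 lower. Only 7 of the 17 had positive values, and the median was -0.08, against -0.06 for all tested probe sets. The 2 genes of smallest p gave 1.19 ± 0.33 for Ero1b, an oxidase that recharges the disulfide isomerases (adjusted p = 0.065), and 0.87 ± 0.33 for Ppp1r15a (Gadd34), which reverses the translation block of that response (adjusted p = 0.179). Of 10 co-chaperone and cytosolic stress genes, 0 passed and 1 had an unadjusted p under 0.05, with 4 positive values and a median of -0.06. The secreted chaperone clusterin (Clu) gave 0.76 ± 0.28 in diabetic muscle and -1.15 ± 0.28 with treatment of diabetic rats (adjusted p = 0.158 and 0.0711), and the crystallin Cryaa gave -0.46 ± 0.25 in diabetic muscle (adjusted p = 0.355).

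The prolyl isomerases other than Ppif also gave no calls. Fkbp2, an isomerase of the endoplasmic reticulum, had AA684963_at signals of 1699, 1734, 726, 816 and 1918 in normal and 2384, 3115, 3786, 2147 and 2480.0 in diabetic muscle, with no overlap, a change of 1.09 ± 0.52 (limma adjusted p = 0.297). Its other probe set gave 0.04 ± 0.23, with a 95% interval of -0.44 to 0.51. Fkbp1a (FKBP12), which steadies the calcium release channel, gave -0.12 to 0.84 from 4 probe sets, and Ppib (cyclophilin B) 0.20 and 0.53 (adjusted p = 0.872 and 0.361). The 11 FK506-binding probe sets had a median change of -0.43 with treatment of diabetic rats, with 9 negative and 0 past the threshold (2 at an unadjusted p under 0.05). Without treated diabetic replicate 5 the median was -0.20, with 8 negative.

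Hsf1, the master activator of heat shock genes, had 3 probe sets, and none differed past the threshold. X83094cds_at signals were 149, 2111, 393, 2289 and 3116 in normal and 259, 871, 358, 798 and 1101 in diabetic muscle. The normal arrays alone spread over more than the whole diabetic range, and the change was -0.73 ± 0.70 (limma adjusted p = 0.626). The remaining 2 gave -0.40 ± 0.35 and -0.15 ± 0.25. The signal of X83094cds_at moved with the beta-actin 3'/5' ratio: over the 20 arrays r was -0.90 and rho -0.90 (permutation p = 1e-05 each, the smallest that 100000 resamples can give; adjusted over 6027 probe sets 0.000773 and 0.000543), r was -0.87 without the 2 farthest arrays and -0.89 with group means removed. For rc_AI172097_g_at r was -0.73 (adjusted p = 0.00636) and for rc_AI172097_at -0.01.

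Many tested probe sets had such a relation, members or not. Of the 85 members, 23 (27.1%) had a correlation with the beta-actin ratio at an adjusted permutation p under 0.05, against 16% of all 6027 tested probe sets. Of these 23, 19 were negative and 4 positive (22.4% and 4.71% of members, against 11.9% and 4.1% of all). Member correlations ran from -0.90 for Hsf1 X83094cds_at to 0.71 for Hsp90b1 S69316_s_at. In 14 genes, different probe sets had correlations of opposite sign. For Canx, r was -0.68 for L18889_at and 0.55 for rc_AI010725_g_at (adjusted p = 0.0127 and 0.0608). Ppif had r = -0.09 (adjusted p = 0.844).

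**Figure D3:**
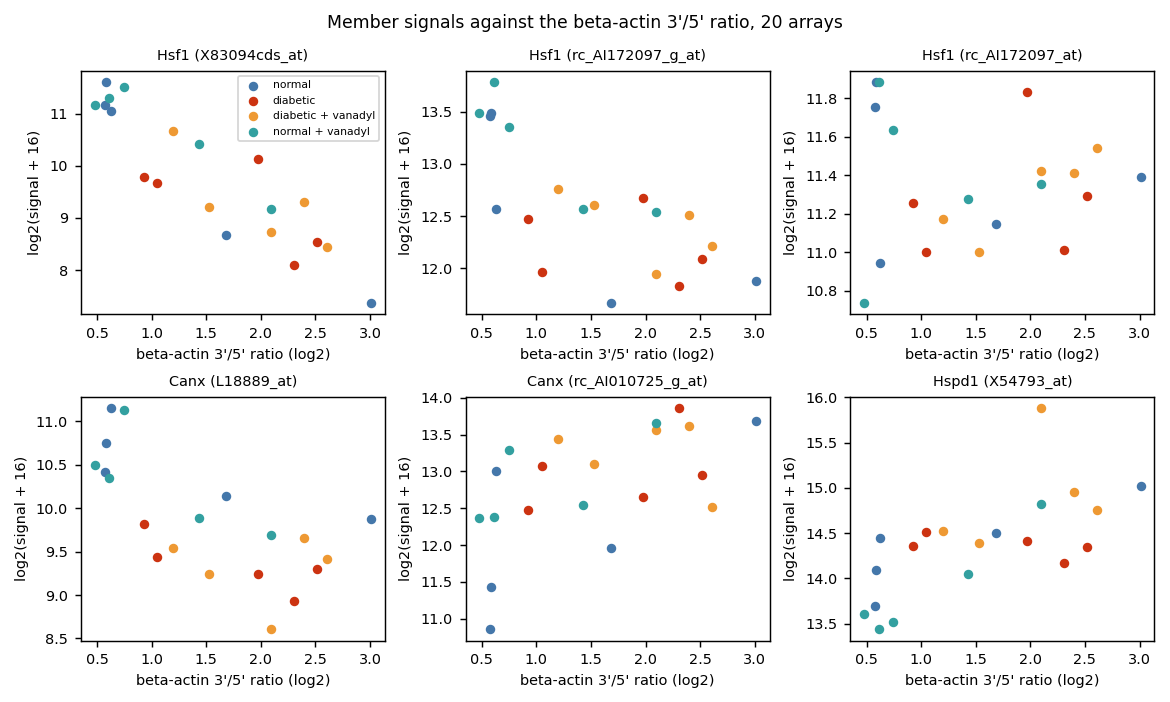
Signal, as log2(signal + 16), against the log2 beta-actin 3'/5' ratio in the 20 arrays, coloured by group, for the 3 Hsf1 probe sets, a pair of Canx probe sets and Hspd1. Hsf1 X83094cds_at declines with the ratio (r = -0.90) and rc_AI172097_at does not (r = -0.01), while the Canx probe sets run in opposite directions.

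Probe sets of 1 gene often differed. Among 25 member genes with several tested probe sets, all gave the same sign in 16 for diabetic against normal, 12 for treated diabetic against diabetic and 14 for treated normal against normal muscle. The median span between the highest and the lowest change of a gene was 0.52, 0.88 and 0.40 log2 units in these comparisons. Over 63 pairs of probe sets of 1 gene, the median r across arrays was 0.43, 17 were negative, and 28 had an adjusted permutation p under 0.05. In treated diabetic replicate 5 the 14 low probe sets belonged to 12 genes. Of these, 11 had several tested probe sets, and each of the 11 had at least 1 that was not more than 2 log2 units below the mean of the other 4 arrays. For Calr, Hspb6, Ppib and Fkbp2 that probe set still lay below each of the 4, at -1.88, -1.74, -1.16 and -0.60 from their mean. For Hspb6, D29960_at was 533 there against 10603 to 33261 in the other 4 arrays, and rc_AI103838_g_at was 10478 against 32964 to 38253. For Hsp90ab1, S45392_at was 1732 against 25760.2 to 54013, and rc_AI236795_s_at was 126083 against 74880.5 to 99196.

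**Figure D4:**
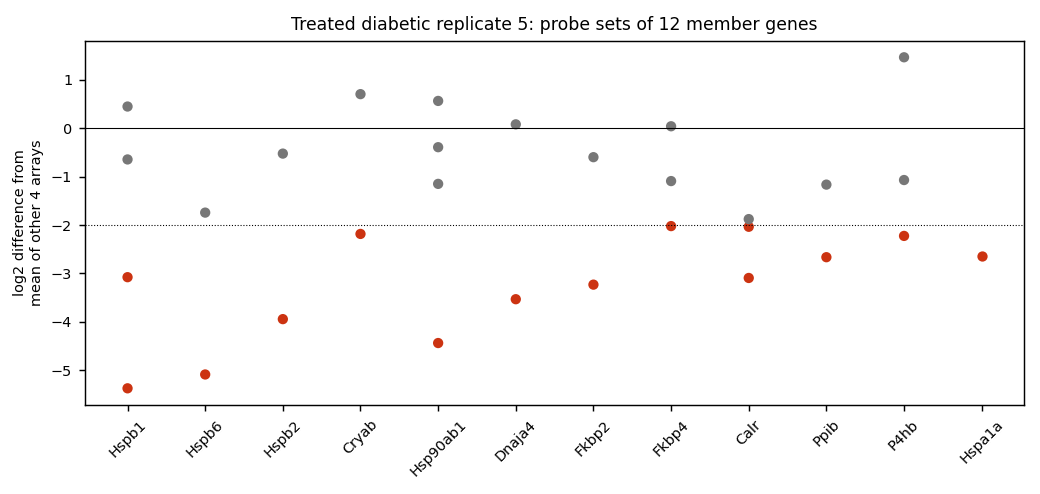
Log2 difference between treated diabetic replicate 5 and the mean of the other 4 arrays of its group, for every tested probe set of the 12 member genes with a low one. Red points lie more than 2 log2 units below (dotted line), and for 11 of the genes another probe set (grey) does not.

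Without the 3 arrays of highest Gapdh ratio, 6 members (7.06%) were called in diabetic against normal muscle, against 7.7% of all tested probe sets (3.97% lower and 3.73% higher). All 6 were lower: Ppif (-1.23, limma adjusted p = 0.0495), Fkbp4 rc_AI136977_at (-2.37), Hsf1 X83094cds_at (-2.03), Hspa9 rc_AA944973_at (-1.43), and Canx L18889_at (-1.43) and rc_AA893328_at (-1.64). In treated diabetic against normal muscle 9 were called (10.6%, against 5.96% of all tested probe sets). Of these, 7 were lower (8.24% of members, against 3.73% of all) and 2 higher (2.35%, against 2.22%). With those arrays left out, the beta-actin ratio no longer overlapped between the groups, at 0.58 to 0.63 in the 3 normal arrays, 0.93 to 2.52 in the diabetic and 1.20 to 2.40 in the treated diabetic arrays. The group and the ratio cannot be told apart in those comparisons.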

How the data were processed

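The deposited values are linear signal intensity, 1 value for each probe set on each array. The submitters' processing notes name MAS5, without a version. The mean after trimming lay between 2503.4 and 2506.46 in the 20 arrays, so the authors' scaling was kept. The labels' protocols describe poly(A) RNA isolated from total RNA and biotin-labelled.

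A linear model of log2(signal + 16) over the 20 arrays was fitted in R 4.3.3 with lmFit and eBayes of limma 3.58.1. Of 8799 probe sets, 59 controls were left out, and 6027 above the array's 40th percentile in at least 5 arrays were tested, two-sided, with Benjamini-Hochberg adjustment over the 6027 and a threshold of 0.05. Fold changes are on the log2(signal + 16) scale and understate those of dim probe sets. Symbols came from the platform annotation, and all 92 member symbols were found unchanged in RefSeq. In the same families, 14 further probe sets carry several symbols and were not members. The number of arrays limits the precision.

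Correlations across arrays used two-sided permutation tests with 100000 resamples (numpy 2.4.6); those with the 3'/5' ratio were adjusted over all 6027. Class medians with 1 array left out were added after seeing the data. Alternatives were a smaller and a larger pseudocount, no filter, quantile normalization, array weights, a replicate block, 3'/5' ratios as covariates, arrays left out, and only the groups compared. The scripts were tested on simulated data.

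Members and lists were chosen with earlier results of these data known. Named are members past the threshold, the 4 smallest p per comparison, the highest mean signal per class, other probe sets of these genes, and 2 genes per pathway list. Values of Hspd1, Dnaja3, Hspa1a, Hspa5, Dnajb1, Hsp90b1, Hspb2, Hspb6 and Fkbp4 were added after seeing them, as were promoters and the pairs correlated. Endothelial, smooth muscle, blood and nerve markers had 0 of 4, 5, 4 and 3 tested genes past the threshold in diabetic against normal muscle by limma (0, 1, 0 and 1 at an unadjusted p under 0.05).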

Additional observations from a re-analysis of the deposited data

Results flagged for a closer look

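Among 96 groups of 5 arrays examined for 24 named probe sets, 4 held an array whose gap to its nearest neighbour exceeded Dixon's 95% critical value of 0.71 times the group's range. Chance alone flags about 1 group in 20. The Hspa2 signal (X15705cds_at) of treated diabetic replicate 2 was 197, against 41.3 in the nearest array of its group. The Hspb1 signal (M86389cds_s_at) of treated diabetic replicate 5 was 379, against 11878 in the nearest. The Canx signal (rc_AA893328_at) of treated normal replicate 5 was 1753, against 493. The Fkbp1a signal (rc_AA875594_s_at) of normal replicate 2 was 15702, against 10645. The Hspa2 and Hspb1 arrays bear on results given above, and no explanation of these values was tested.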

How the results depend on the processing

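For the named member values, 407 comparisons with an alternative kept their direction and side of the threshold, 12 lost and 9 gained the call, and 0 changed direction. Members called in diabetic against normal muscle numbered 1, but 0 without the filter, with 3'/5' covariates, with only the groups compared, and without both diabetic arrays of high immune marker level (chosen after seeing the data), against 6 without the 3 arrays of highest Gapdh ratio and 4 with array weights. With 1 array left out the count ran from 0 to 3, from 0 to 1 for treated diabetic against diabetic and against normal muscle, and was 0 for the other comparisons. In treated diabetic against normal muscle, 9 were called without the 3 arrays of highest Gapdh ratio. Over all probe sets, diabetic against normal muscle gave 62 calls without the filter, 32 with covariates, 464 without the 3 arrays, 515 with array weights, 71 with only the groups compared and 3 without both immune-high arrays, and 24 to 247 with 1 array left out, against 110. Treated diabetic against diabetic muscle gave 19 without the filter, 112 with array weights, 11 with only the groups compared, 1 without both immune-high arrays and 10 to 54 with 1 array left out, against 30. Treated diabetic against normal muscle gave 359 without the 3 arrays, 1 with array weights and 0 to 3 with 1 left out, against 0. The interaction gave 1 without the filter, with quantile normalization, with covariates, without the 3 arrays and without both immune-high arrays, 40 with array weights and 1 to 22 with 1 left out, against 10. Treated normal against normal muscle gave 2 with a pseudocount of 1 and without the 3 arrays, 0 without the filter, with quantile normalization and with only the groups compared, 19 with array weights and 0 to 4 with 1 left out, against 4. The causes were not tested, apart from the fewer arrays in the fits that leave some out.

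Same-numbered arrays of different groups had correlations of -0.28 to 0.62 in their deviations (median 0.07, 11 of 30 over 0.1). Different-numbered arrays had -0.49 to 0.41 (median 0.004, 33 of 120 over 0.1), and 6 of 20 arrays were closest to their own number. Over the 4 groups the beta-actin ratio was 2.09 to 3.01 in replicate 1, 0.61 to 1.20 in replicate 2 and 0.48 to 2.52 in replicates 3 to 5. Whether arrays of 1 number shared a batch was not tested. With the replicate block, the Ppif change was -1.21 (limma adjusted p = 0.0497), calls over all probe sets were 6 for the interaction and 0 for treated normal against normal muscle, and no other count moved by over 1.5 times.

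The SE of a member change had a median of 0.35, and 0.50 for the interaction. Ppif, at -1.21 in diabetic muscle, only just passed. Cct6a, at 1.47 with treatment of normal rats, did not. A change under about 1 log2 unit was thus seldom detectable by these tests, and larger ones could also be missed.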

Other observations

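In these families, 14 probe sets carry several gene symbols, 12 of which were tested. None passed the adjusted limma threshold in any of the 5 comparisons. In diabetic against normal muscle 1 of the 12 had an unadjusted p under 0.05, and 3 did in treated diabetic against diabetic muscle, where their changes ran from -1.70 to 0.69.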
